A study of Mus musculus with 30 samples.

Results

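Microglia are the resident macrophages of the brain, and the 32 genes described here are markers of that cell. They were chosen by name and found in the deposited count table through their Ensembl IDs. The rule itself uses no measured value, but the genes were chosen with earlier results of these data known. All 32 were found among the 55401 gene IDs of the table, and all 32 passed the filter on low counts with 23736 genes in all. They were split into 14 genes called homeostatic, 10 called activation genes, of phagocytosis, complement and Fc receptor signalling, and 8 pan-myeloid genes that blood-derived macrophages also use. These names are labels for the lists, and whether the lists follow the state of the cell was not tested.

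Polyadenylated RNA was sequenced from tissue punches of the nucleus accumbens, a part of the ventral striatum, taken on both sides. The 30 mice were male C57Bl/6J, with 1 library per mouse. Surgery was a tibial spared nerve injury (SNI), which models neuropathic pain by cutting some branches of the sciatic nerve, or sham surgery. Intraperitoneal injections began 4 weeks later and went on for 3 weeks, 2 times a day. The groups were SNI on tianeptine at 30 mg/kg (n = 6), SNI on desipramine at 15 mg/kg (n = 4), SNI on saline (n = 5), sham on tianeptine (n = 6), sham on desipramine (n = 4) and sham on saline (n = 5). Tianeptine is an atypical antidepressant and mu-opioid agonist. Desipramine, a tricyclic, blocks the uptake of noradrenaline. The study's control is sham on saline, and all groups had surgery and repeated injections. The age of the mice is not given in the sources used here. Tissue was not sorted into cell types, so in these bulk samples fewer microglia and less RNA per microglial cell cannot be told apart.

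Microglia survey the tissue with processes guided by purine and chemokine receptors such as P2RY12 and CX3CR1, and depend on signalling through CSF1R to survive. When they take up debris or synapses they use complement C1q, the TREM2 receptor with its signalling adaptor TYROBP, Fc receptors and lysosomal proteases. In the spinal cord after nerve injury microglia are known to multiply and to change many of these genes.

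The libraries held 24.5 to 120.7 M (mega) counts. The 24 libraries of the first set, replicates 1 to 4 of each group, held 24.5 to 37.7 M, and the 6 of the second set, replicates 5 and 6 of saline and tianeptine groups, held 98.0 to 120.7 M. Desipramine was sequenced in the first set alone. Some libraries stood apart in markers of neighbouring tissue, given as a score (the average over a list of log2 CPM after each gene's mean over all libraries is taken off). Sham saline replicate 3 had a fibroblast and meninges score of 3.02, against -0.82 to 0.43 in the other 4 libraries of its group. Sham tianeptine replicate 6 had a choroid plexus and ependyma score of 3.71, against -0.59 to 1.11 in the rest of its group. SNI desipramine replicates 2 and 3 had scores of septal and hypothalamic neurons of 1.36 and 1.54, against 0.42 and -0.14 in replicates 1 and 4. In the libraries of SNI desipramine the medium spiny neuron score ran from -2.46 to 0.44, and the summed level of those genes from 1330 to 8853 CPM. No library of another group had a medium spiny neuron score below -0.48. Medians are also given without sham saline replicates 2 and 3, and without SNI desipramine replicates 2 and 3, both chosen after the data were seen.

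Levels are given as CPM, which are counts scaled to library size, with library sizes corrected by TMM. To compare genes they are given per kb of exon, and the order on the whole gene span is given after it. On that scale C1qa, a chain of the complement starter C1q, stood highest with a mean of 39.5 CPM per kb over the 30 libraries. The lysosomal protease cathepsin S, Ctss, followed with 38.2 CPM per kb and C1qb with 35.8 CPM per kb. The lowest were Cd33, a sialic acid receptor, at 1.47 CPM per kb, the high-affinity IgG receptor Fcgr1 at 1.2 CPM per kb and Irf8, a transcription factor of myeloid cells, at 0.507 CPM per kb. C1qa, Ctss and C1qb overlapped widely in their ranges, so their order is not fixed by these libraries. Per kb of exon the median over genes was 12.9 for the 10 activation genes, 7.74 for the 14 homeostatic genes and 2.76 for the 8 pan-myeloid genes. The defining markers P2ry12, a purine receptor, Tmem119, a membrane protein of resting microglia, and Fcrls, an Fc receptor-like protein, had 9.79, 8.53 and 9.94 CPM per kb. Every member had counts in every library, with the lowest at 64 counts for Gpr34, a lysophospholipid receptor. Each defining marker thus had counts in every library, although those of P2ry12 can hold reads of another gene, as described below. The order depends on the length used. Per kb of the whole span C1qa stood highest at 14.2 CPM per kb, followed by C1qc at 12.1 and C1qb at 6.44 CPM per kb, while Ctss had 1.75 CPM per kb. On that scale the lowest were Irf8 at 0.176, Cd53 at 0.165 and Ly86 at 0.131 CPM per kb.

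**Figure D1:**
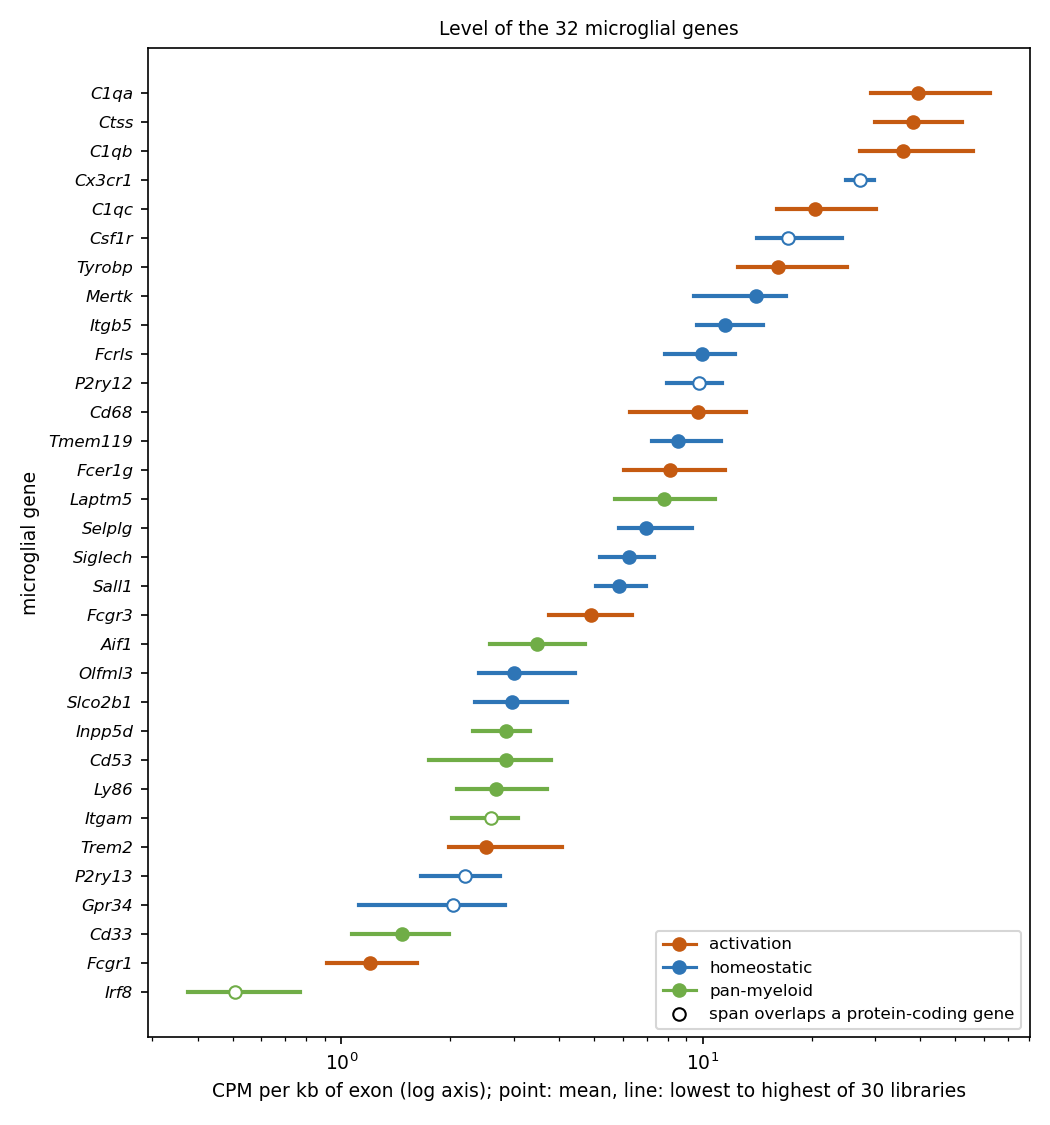
Level of each of the 32 microglial genes in CPM per kb of exon on a log axis, ordered from high to low. Points are means and lines run from the lowest to the highest of the 30 libraries, and open points mark genes whose span overlaps a protein-coding gene. C1qa stands highest at 39.5 and Irf8 lowest at 0.507.

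The way reads were counted limits these levels. Over 1575 pairs of genes in which one lies inside another on the opposite strand, the inner gene never had more counts than the outer one in any library, and the same held for 1062 such pairs on the same strand, both for inner genes with at least 1000 counts in all. The deposited FPKM values used the whole span of the gene as its length for 43516 of 43516 gene IDs compared. The counts thus behave as if reads in introns were counted, strand was not used and a read in overlapping genes was counted for each. Of the members, 21 have spans that overlap no other gene, and 7 overlap a protein-coding gene.

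Cx3cr1, the fractalkine receptor that keeps microglia in touch with neurons, was the most affected. Its annotated span of 168 kb on chromosome 9 holds the genes Gorasp1, Csrnp1, Ttc21a and Xirp1 and part of Wdr48, none of which is a microglial marker. After the counts of the genes inside it were taken away, a median of 75.5% of its counts remained, and after those of Wdr48 too, 33.9%. The coefficient of variation over the 30 libraries was 4.63% as deposited, the smallest of the 32 genes, and 13.1% after both were taken away, which is near that of the other homeostatic genes. The full count of Wdr48 was taken away although only part of it overlaps, so the last value is a lower limit for what is left. P2ry12 and P2ry13, purine receptor genes 5.4 kb apart on chromosome 3, both lie inside Med12l on the opposite strand. Gpr34 lies inside Cask, a neuronal scaffold gene, Irf8 inside a predicted gene model of 4.43 Mb, and Itgam, the integrin chain CD11b, shares nearly all of its span with the model Gm49368.

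Promoter sequence was looked at because the C1q and TREM2 genes varied together from library to library, as shown further on, and because Fcrls and Olfml3 had the smallest p values for tianeptine. Windows of 250 bases before to 50 bases after the start were matched by symbol to 26 of the 32 members in RefSeq's annotation of GRCm38.p6. The letters GAGGAA, a purine-rich core of the kind that the myeloid factor PU.1 binds, were searched on both strands, so TTCCTC counts as well. They stood in 17 of the 26 genes (65.4%), against 31.3% of all 27025 genes with such a window. By group they were in 7 of 8 activation genes, 6 of 8 pan-myeloid genes and 4 of 10 homeostatic genes. A match of these letters is a description and not a binding site. The sequences below are 5′ to 3′ on the strand of the gene, with the match in capitals: C1qb at chr4:136886151-136886450 (minus strand), C1qc at chr4:136892865-136893164 (minus strand), Trem2 at chr17:48346151-48346450 (plus strand), Fcrls at chr3:87263475-87263774 (minus strand) and Olfml3 at chr3:103737952-103738251 (minus strand), which has no match.
C1qb: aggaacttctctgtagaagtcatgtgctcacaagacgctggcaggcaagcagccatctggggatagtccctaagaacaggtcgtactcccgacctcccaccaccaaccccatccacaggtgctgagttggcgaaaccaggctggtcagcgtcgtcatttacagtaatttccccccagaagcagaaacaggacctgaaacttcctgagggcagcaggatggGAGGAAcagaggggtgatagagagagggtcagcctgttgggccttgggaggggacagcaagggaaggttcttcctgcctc
C1qc: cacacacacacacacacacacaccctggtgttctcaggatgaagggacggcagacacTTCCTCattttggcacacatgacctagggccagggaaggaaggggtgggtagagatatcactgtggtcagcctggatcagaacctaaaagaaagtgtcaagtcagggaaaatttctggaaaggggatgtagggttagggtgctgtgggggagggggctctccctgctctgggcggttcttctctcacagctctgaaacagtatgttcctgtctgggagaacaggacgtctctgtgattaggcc
Trem2: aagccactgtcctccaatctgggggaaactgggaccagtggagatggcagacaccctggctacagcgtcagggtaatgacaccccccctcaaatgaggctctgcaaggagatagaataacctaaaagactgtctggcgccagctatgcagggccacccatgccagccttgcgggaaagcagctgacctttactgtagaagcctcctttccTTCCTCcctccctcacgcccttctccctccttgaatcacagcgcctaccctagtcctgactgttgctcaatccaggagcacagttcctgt
Fcrls: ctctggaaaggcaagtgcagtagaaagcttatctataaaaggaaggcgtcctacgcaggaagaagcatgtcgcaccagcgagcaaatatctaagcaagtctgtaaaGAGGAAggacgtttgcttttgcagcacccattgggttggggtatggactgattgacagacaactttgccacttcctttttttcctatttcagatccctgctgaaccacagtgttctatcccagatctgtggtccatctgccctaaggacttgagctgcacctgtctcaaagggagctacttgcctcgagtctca
Olfml3: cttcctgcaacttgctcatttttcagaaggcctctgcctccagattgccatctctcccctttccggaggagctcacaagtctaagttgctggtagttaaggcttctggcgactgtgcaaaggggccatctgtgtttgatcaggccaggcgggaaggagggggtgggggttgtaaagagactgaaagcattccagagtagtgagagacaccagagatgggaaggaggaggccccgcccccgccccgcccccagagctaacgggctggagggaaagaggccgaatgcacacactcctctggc
In C1qb and Trem2 the match begins 30 and 40 bases before the start used for the window, in Fcrls 144 and in C1qc 193 bases before it. In the annotation used for the counts the starts of Fcrls and C1qc lie further upstream. There the match of Fcrls falls inside the gene. C1qb and C1qc lie 3.6 kb apart and C1qc and C1qa 2.9 kb apart, in a cluster on chromosome 4.

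None of the 32 genes passed the test in any of 13 comparisons. The test was edgeR's quasi-likelihood test on the counts with 1 coefficient for each group and 1 for the library set, with Benjamini-Hochberg adjustment over the 23736 genes tested and a threshold of 0.05. Differences are log2 fold changes with their standard error (SE), and p values are 2-sided. Where adjusted p values are named below they are from this test unless another tool is given.

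The scores by library overlapped between groups when both library sets were read together. The homeostatic score was -0.03 ± 0.04 (SD, n = 6) in SNI tianeptine, 0.03 ± 0.05 (n = 4) in SNI desipramine and -0.01 ± 0.09 (n = 5) in SNI saline. In sham mice it was -0.08 ± 0.09 (n = 6) with tianeptine, 0.06 ± 0.11 (n = 4) with desipramine and 0.07 ± 0.11 (n = 5) with saline. The activation score was -0.11 ± 0.14 in SNI tianeptine, 0.05 ± 0.07 in SNI desipramine and 0.06 ± 0.15 in SNI saline. It was -0.10 ± 0.11 in sham tianeptine, 0.03 ± 0.17 in sham desipramine and 0.13 ± 0.29 in sham saline. The wide spread of sham saline came from replicate 2 with an activation score of 0.54 and replicate 3 with 0.28, against 0.10, -0.12 and -0.15 in the others. The difference of homeostatic minus activation score ranged over the libraries of each group from -0.02 to 0.23 in SNI tianeptine, -0.09 to 0.09 in SNI desipramine and -0.19 to 0.20 in SNI saline. It ranged from -0.13 to 0.24 in sham tianeptine, -0.04 to 0.12 in sham desipramine and -0.38 to 0.09 in sham saline. These ranges hold both library sets, which differed in this value. In the first set alone it ran from -0.02 to 0.08 in SNI tianeptine, -0.09 to 0.09 in SNI desipramine and -0.19 to -0.07 in SNI saline, so SNI tianeptine did not overlap SNI saline. The second set held 0.18 and 0.23 in SNI tianeptine and 0.20 in SNI saline. In the first set of sham mice it ran from -0.13 to 0.03 with tianeptine, -0.04 to 0.12 with desipramine and -0.38 to 0.08 with saline, and these overlapped. The separation in SNI mice was one of 4 against 4 libraries and was not tested. In that set the activation score ran from -0.10 to 0.05 in SNI tianeptine and from -0.09 to 0.22 in SNI saline. The homeostatic score ran from -0.03 to 0.03 and from -0.16 to 0.04, so each score alone overlapped.

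**Figure D2:**
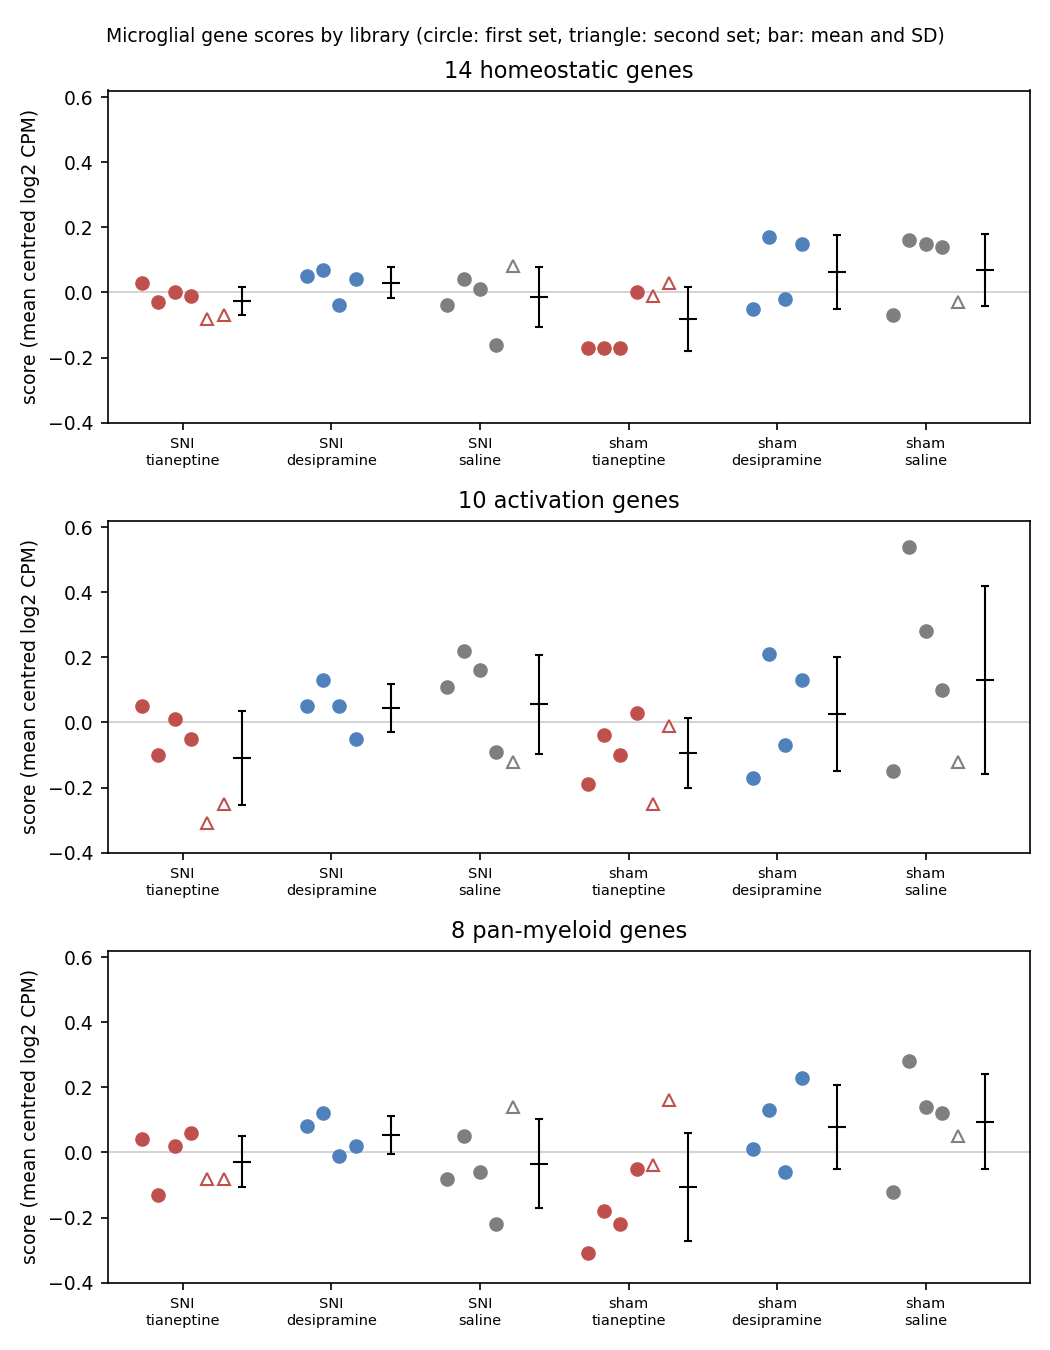
Score of the homeostatic, activation and pan-myeloid genes in each library (mean of centred log2 CPM), by group. Circles are libraries of the first set, open triangles those of the second, and bars show mean and SD. Groups overlap in each panel, and sham saline replicate 2 has the highest activation score at 0.54.

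Tianeptine was compared with saline in sham mice to see what the drug alone did to these genes. All 32 had a negative log2 fold change, from -0.38 to -0.01 with a median of -0.20, where the median of all genes was 0.00. No member passed, and no gene at all passed (0.0%). At an unadjusted p under 0.05 stood 16 members, against 6.84% of all genes. The members were chosen with earlier results known and vary together, with a median r of 0.50 over pairs. These counts are thus not counts of independent genes. DESeq2 and limma-voom called 0 members and 1 and 0 genes. By role the median was -0.24 for the activation genes, -0.21 for the pan-myeloid genes and -0.15 for the homeostatic genes.

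Olfml3, a secreted glycoprotein of resting microglia, had the smallest p. It had 14.8, 16.3 and 17.9 CPM as lowest, median and highest in sham tianeptine, against 17.7, 25.2, 27.4, 20.2 and 16.4 CPM in sham saline. Sham saline replicates 2 and 3 stood well above the tianeptine libraries, and the other replicates near them. The log2 fold change was -0.38 ± 0.09 (adjusted p = 0.714, edgeR). It was -0.16 without those 2 saline libraries and -0.51 in the first library set alone.

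Fcrls had 18.3, 21 and 21.6 CPM as lowest, median and highest in sham tianeptine, against 24.4, 26.6, 28.5, 24.2 and 22 CPM in sham saline. The groups did not overlap. Of the 32 members this held for Fcrls alone, and in the lower direction for 0.173% of all genes. The log2 fold change was -0.29 ± 0.07 with a 95% interval of -0.44 to -0.13 (adjusted p = 0.714, edgeR). It was -0.20 without sham saline replicates 2 and 3.

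The complement and TREM2 genes showed the same direction with more spread. C1qa had 32.2, 36.6 and 40.7 CPM as lowest, median and highest in sham tianeptine, against 37.3, 64.7, 51.4, 42.0 and 35.1 CPM in sham saline. Sham saline replicate 2 was far above all others and the groups overlapped. The log2 fold change was -0.28 ± 0.11 for C1qa, -0.25 ± 0.10 for C1qb and -0.21 ± 0.09 for C1qc. Without sham saline replicates 2 and 3 that of C1qa was -0.06. Trem2, the lipid-sensing receptor, differed by -0.30 ± 0.12 and its adaptor Tyrobp by -0.25 ± 0.11. Trem2 had 10.3, 11 and 11.8 CPM as lowest, median and highest in sham tianeptine, against 10.2, 20.2, 13.3, 13.2 and 12.2 CPM in sham saline.

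Among the others, the shared Fc receptor chain Fcer1g differed by -0.31 ± 0.11, the lysosomal membrane protein Laptm5 by -0.29 ± 0.09, Csf1r by -0.26 ± 0.09 and the integrin chain Itgb5 by -0.22 ± 0.08. Laptm5 had 21.6, 26.9 and 31.3 CPM as lowest, median and highest in sham tianeptine, against 25.9, 40.8, 30.4, 32.9 and 31.8 CPM in sham saline. The groups overlapped in Laptm5, Fcer1g, Csf1r and Itgb5. Tmem119 differed by -0.19 ± 0.09, while the lysosomal glycoprotein Cd68 differed by -0.11 ± 0.14, P2ry12 by -0.01 ± 0.07 and Cx3cr1 by -0.02 ± 0.05. The values of P2ry12 and Cx3cr1 hold the reads of Med12l and of the genes inside Cx3cr1. With the counts of the nested genes and Wdr48 taken away, Cx3cr1 differed by -0.25 (unadjusted p = 0.0213, adjusted p = 0.726, edgeR).

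The size of this difference depended on the saline libraries. The median of the 32 genes was -0.20 with all libraries, -0.14 without sham saline replicate 2 and -0.09 without replicates 2 and 3 together, with 30 of 32 still negative. At an unadjusted p under 0.05 stood 2 members without both, where the share of all genes was not counted. The first library set alone gave -0.30. Some lists of other cells had the same direction: all 18 endothelial genes, with a median of -0.31, all 13 mural genes, with -0.33, all 9 tested border macrophage genes, with -0.61, and all 15 fibroblast and meninges genes, with -1.19, were negative, and none passed. Medium spiny neuron genes were negative in 14 of 15, with a median of -0.20, the same as that of the members. Astrocyte and oligodendrocyte genes were each negative in 12 of 15, with medians of -0.09 and -0.06. None of these passed. Others had the opposite direction: all 13 choroid plexus and ependyma genes were positive, with a median of 1.75, as were all 10 genes of septal and hypothalamic neurons, with 0.34, and none passed. Without sham tianeptine replicate 6, the library high in choroid plexus genes, the median of the members was -0.24, with all 32 negative. The summed level of the 10 border macrophage genes ran from 30.3 to 76.1 CPM in sham tianeptine and from 51.9 to 81.9 CPM in sham saline, with no gene of the list at 0 in all libraries of a group. Endothelial scores ran from -0.46 to 0.21 in sham tianeptine and from -0.20 to 0.51 in sham saline. The part of these cells in the microglial values was not tested.

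**Figure D3:**
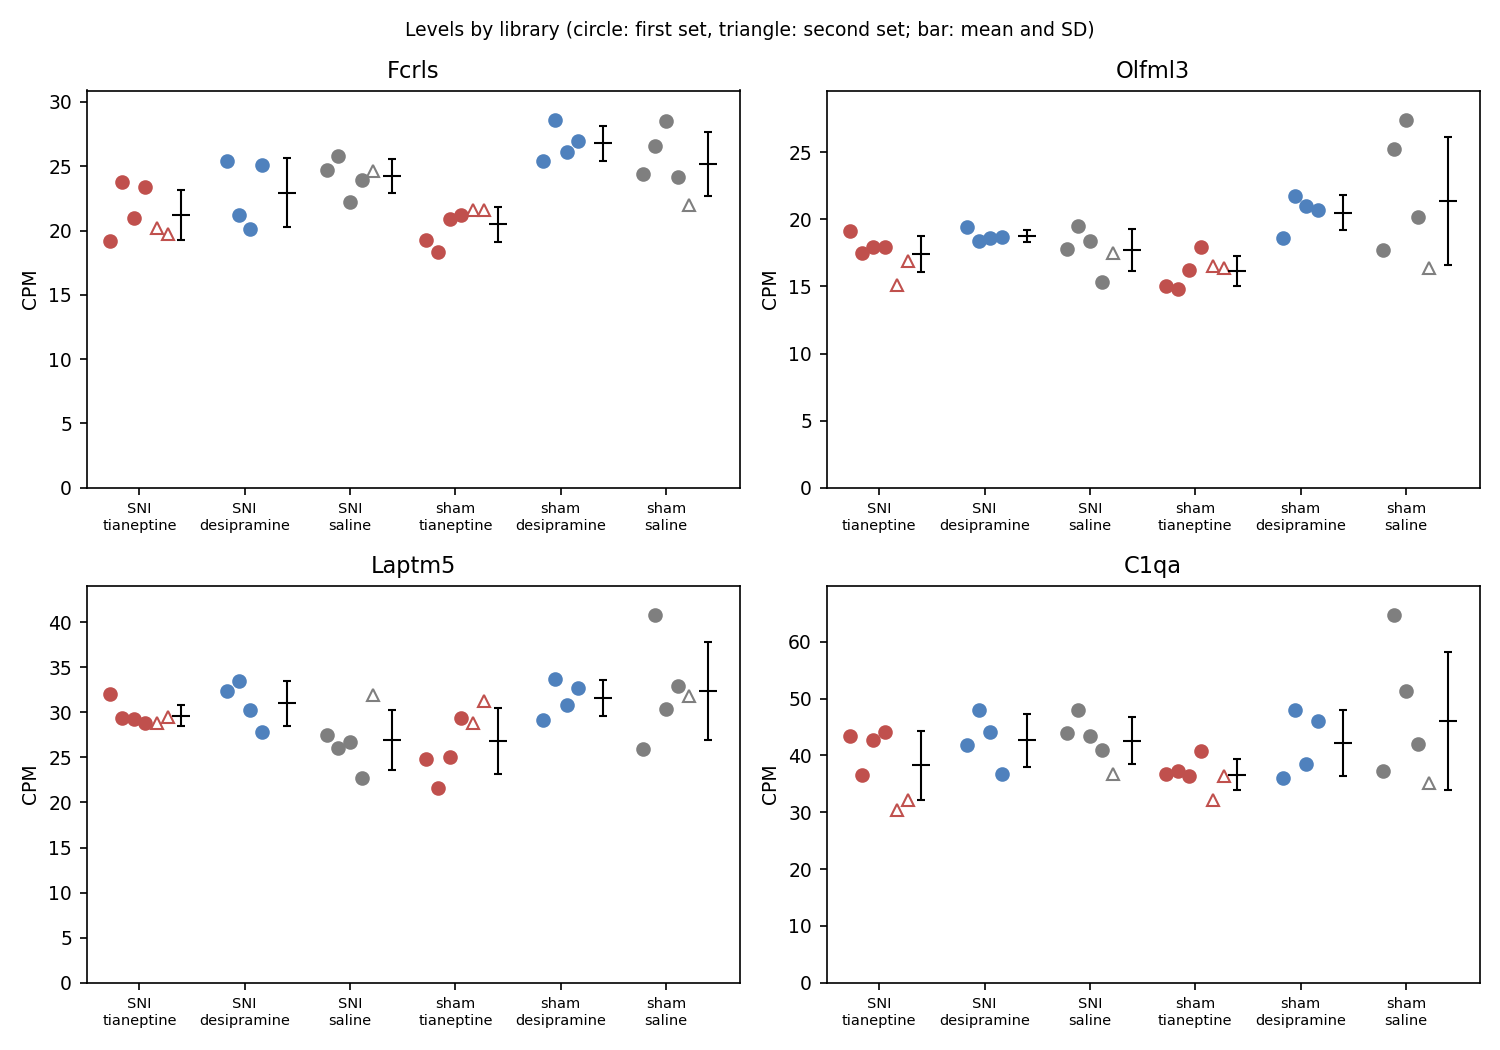
CPM of Fcrls, Olfml3, Laptm5 and C1qa in each library by group, with mean and SD beside the points. Circles are libraries of the first set and open triangles those of the second. Fcrls in sham tianeptine lies between 18.3 and 21.6, below all sham saline libraries at 22 to 28.5, while the other genes overlap.

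In SNI mice the same comparison gave a median of -0.04, with 22 of 32 negative. No member and no gene passed (0.0%), and 3 members stood at an unadjusted p under 0.05, against 2.87% of all genes. The calls of DESeq2 and limma-voom were 0 members and 1 and 0 genes. Fcrls had 19.2, 20.6 and 23.8 CPM as lowest, median and highest in SNI tianeptine, against 24.7, 25.8, 22.2, 23.9 and 24.6 CPM in SNI saline. The groups overlapped at their edges. Its log2 fold change was -0.19 ± 0.07, that of Fcer1g -0.27 ± 0.11, and that of Sall1, the transcription factor that keeps microglial identity, 0.17 ± 0.07 (adjusted p = 1.0 each, edgeR). Laptm5 differed by 0.12. The activation genes had a median of -0.15 and the homeostatic genes of -0.01.

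The difference between both surgeries was tested as an interaction, the effect in SNI minus the effect in sham. The median was 0.10, with 30 of 32 positive, 0.27 in the first library set alone, and 0.03 with 19 of 32 positive without sham saline replicates 2 and 3. No member and no gene passed (0.0%), while 3 members had an unadjusted p under 0.05, against 4.2% of all genes. These were Laptm5 at 0.41 ± 0.13, Olfml3 at 0.37 ± 0.13 and Sall1 at 0.26 ± 0.10 (adjusted p = 0.989 each, edgeR). DESeq2 and limma-voom called 0 members and 0 genes. The interaction of Fcrls was 0.10 ± 0.10 with a 95% interval of -0.12 to 0.31, so its effects in both surgeries were not told apart.

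Averaged over both surgeries, tianeptine against saline gave a median of -0.11, with 30 of 32 negative. No member and no gene passed (0.0%), and 13 members had an unadjusted p under 0.05, against 4.74% of all genes. Without sham saline replicates 2 and 3 the median was -0.07, with 28 of 32 negative, and 2 members had an unadjusted p under 0.05. The share of all genes in that setting was not counted. The calls of DESeq2 and limma-voom were 0 members and 1 and 0 genes. Fcrls differed by -0.24 ± 0.05 (unadjusted p = 0.000121, adjusted p = 0.956, edgeR) and Fcer1g by -0.29 ± 0.08. C1qb differed by -0.22 ± 0.07, Olfml3 by -0.19 ± 0.07, C1qc by -0.19 ± 0.07, Tyrobp by -0.22 ± 0.08 and C1qa by -0.20 ± 0.08. All 10 activation genes were negative with a median of -0.21, and 12 of 14 homeostatic genes with a median of -0.10. Fcrls was negative under all 31 alternatives tried, from -0.27 to -0.19.

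**Figure D4:**
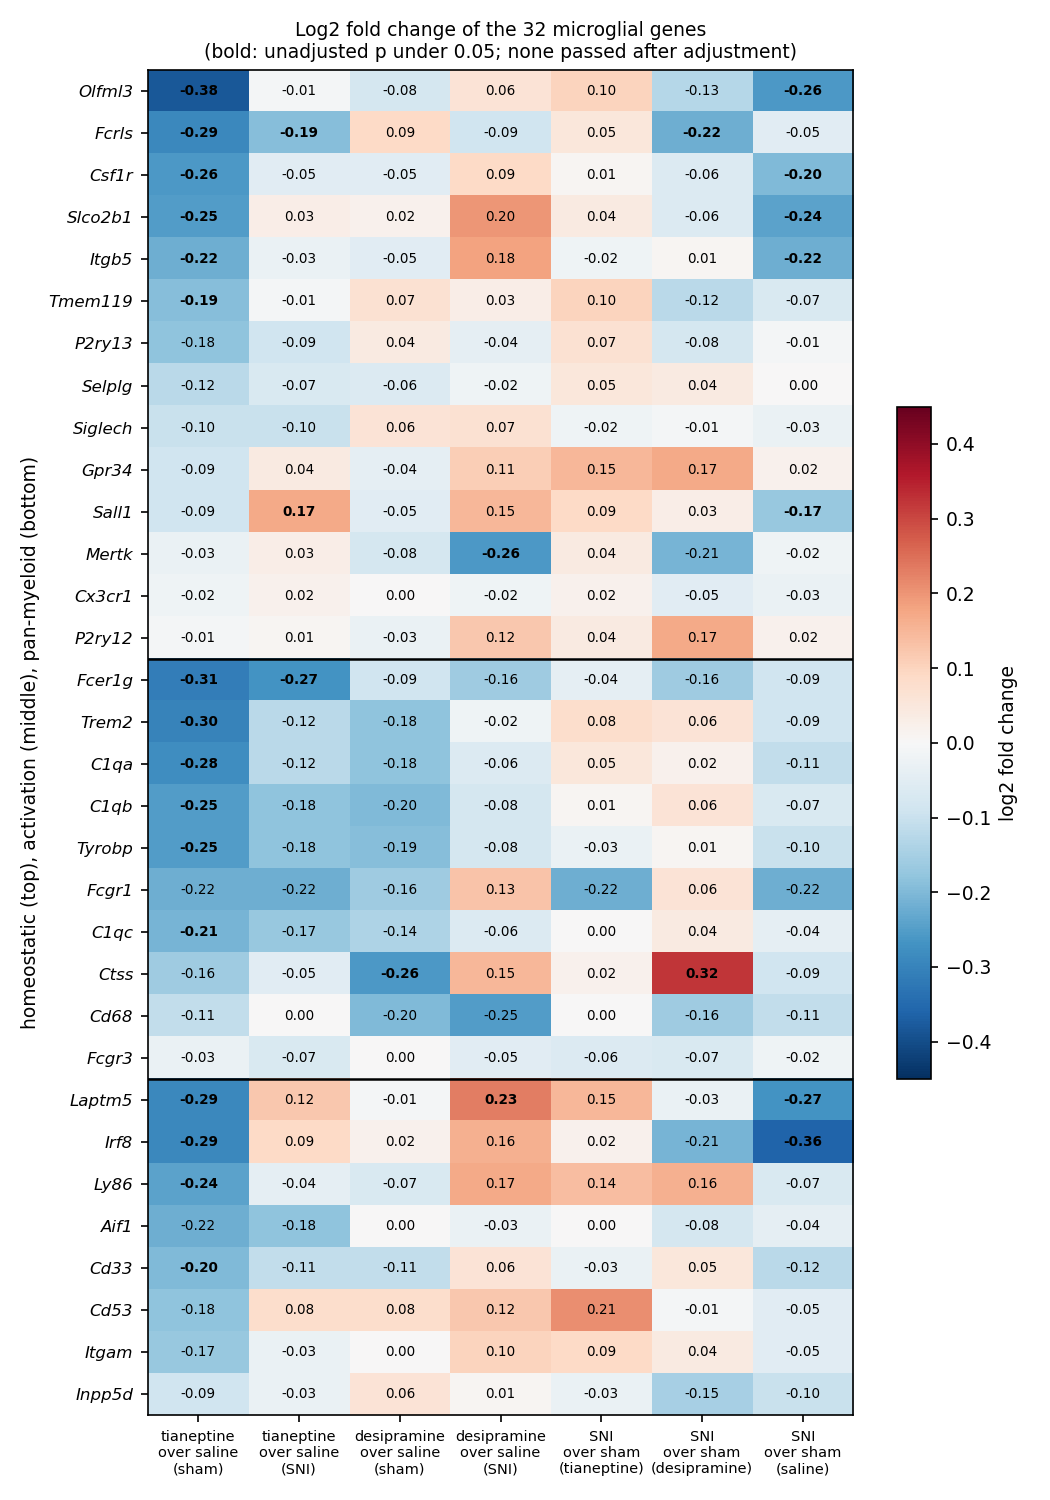
Log2 fold change of each microglial gene (rows, by role) in the 7 comparisons of 2 groups (columns), with bold where the unadjusted p was under 0.05. The left column, tianeptine over saline in sham, is negative for all 32 genes, with a median of -0.20, and no value passed after adjustment.

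Desipramine was compared with saline in the same way. In sham mice the median was -0.05, with 21 of 32 negative, no member and no gene passed (0.0%), and 1 member had an unadjusted p under 0.05, against 7.63% of all genes. That was Ctss, with 42.8, 51.4, 42.0 and 55.1 CPM in sham desipramine, against 47.7, 68.4, 58.5, 59.1 and 44.5 CPM in sham saline. Its log2 fold change was -0.26 ± 0.12 (adjusted p = 0.625, edgeR). Activation genes had a median of -0.18 and homeostatic genes of -0.03. Without sham saline replicates 2 and 3 the median of all 32 was 0.07. DESeq2 called 0 members and 22 genes, and limma-voom none of either.

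In SNI mice the median was 0.04, with 18 of 32 positive and none past the threshold, where again no gene passed (0.0%). At an unadjusted p under 0.05 stood 2 members, against 17.5% of all genes. Laptm5 had 32.4, 33.5, 30.3 and 27.8 CPM in SNI desipramine, against 27.5, 26.0, 26.7, 22.7 and 31.9 CPM in SNI saline, a log2 fold change of 0.23 ± 0.10. Mertk, a receptor for the uptake of dying cells that astrocytes also express, had 56.0, 41.1, 44.7 and 64.6 CPM in SNI desipramine, against 57.7, 62.2, 51.9, 73.0 and 66.3 CPM in SNI saline. The low values were replicates 2 and 3, the libraries with septal and hypothalamic markers. Its log2 fold change was -0.26 ± 0.12 (adjusted p = 0.270, edgeR), and -0.40 (adjusted p = 0.0345, edgeR) without SNI desipramine replicate 4. Without replicates 2 and 3 it was -0.05, and no member then had an unadjusted p under 0.05 (share of all genes not counted). Over 18 alternatives its adjusted p ran from 0.0345 to 1.0. DESeq2 called 0 members and 555 genes, and limma-voom none of either.

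Averaged over both surgeries, desipramine gave a median of 0.00, with 15 of 32 positive. No member passed, while 7 genes did (0.0295%), and 0 members had an unadjusted p under 0.05, against 12.5% of all genes. Without sham saline replicates 2 and 3 the median was 0.05 and 4 members had an unadjusted p under 0.05. Without SNI desipramine replicates 2 and 3 the median was -0.01, with 1 member. The share of all genes was not counted in either setting, so these counts are not read as a change. DESeq2 and limma-voom called 0 members and 132 and 7 genes. The smallest p was that of Cd68, with a log2 fold change of -0.22 ± 0.12 (adjusted p = 0.422, edgeR). The interaction with surgery had a median of 0.12, 0.01 without sham saline replicate 2, -0.04 without sham saline replicates 2 and 3, and 0.04 without SNI desipramine replicates 2 and 3. No member and no gene passed (0.0%), and 1 member, Ctss at 0.41 ± 0.16, had an unadjusted p under 0.05, against 12.3% of all genes. The calls of DESeq2 and limma-voom were 0 members and 100 and 0 genes.

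The drugs were then set against each other, averaged over both surgeries. The median of tianeptine over desipramine was -0.13, with 29 of 32 negative. No member passed, against 0.438% of all genes, and 12 members had an unadjusted p under 0.05, against 14.2% of all genes. Without SNI desipramine replicates 2 and 3 the median was -0.11 and 6 members had an unadjusted p under 0.05, with Fcrls at -0.30. The share of all genes in that setting was not counted. Fcrls came nearest to the threshold of any member in any comparison, with a log2 fold change of -0.24 ± 0.06 and a 95% interval of -0.36 to -0.11 (adjusted p = 0.0677, edgeR). It had 19.2, 20.6 and 23.8 CPM as lowest, median and highest in SNI tianeptine, against 25.4, 21.2, 20.1 and 25.1 CPM in SNI desipramine. In sham mice it had 18.3, 21 and 21.6 CPM with tianeptine, against 25.4, 28.6, 26.1 and 27.0 CPM with desipramine. In sham mice the tianeptine libraries all lay below the desipramine libraries, as in the lower direction for 1.23% of all genes, whereas in SNI mice the groups overlapped. Olfml3 was apart in sham mice as well, and Itgb5 and Fcgr1 were apart in SNI mice, as in the lower direction 1.07% of all genes were. DESeq2 called Fcrls (adjusted p = 0.0216) among 422 genes, and limma-voom called 0 members and 95 genes. Without SNI desipramine replicate 3 its adjusted p was 0.0492 and without SNI tianeptine replicate 4 it was 0.0417, both by edgeR. Without the term for the library set it was 0.0318, also by edgeR. Over all 29 alternatives its log2 fold change ran from -0.30 to -0.21 and its adjusted p from 0.0216 to 0.143. Next came Itgb5 at -0.19 ± 0.06, the organic anion carrier Slco2b1 at -0.22 ± 0.08, Laptm5 at -0.19 ± 0.07 and Csf1r at -0.18 ± 0.07, with adjusted p values of 0.165 to 0.254 (edgeR). Endothelial genes were negative in 16 of 18, with a median of -0.21, and 2 of them passed.

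Nerve injury was compared with sham on each treatment. On saline the median was -0.08, with 30 of 32 negative. No member and no gene passed (0.0%), and 7 members had an unadjusted p under 0.05, against 9.74% of all genes. DESeq2 and limma-voom called 0 members and 1 and 0 genes. Laptm5 differed by -0.27 ± 0.10, Olfml3 by -0.26 ± 0.10, Itgb5 by -0.22 ± 0.08 and Irf8 by -0.36 ± 0.14 (adjusted p values of 0.436 to 0.442, edgeR). C1qa differed by -0.11, Trem2 by -0.09 and Fcrls by -0.05. The median was -0.02 without sham saline replicate 2 and -0.01 without replicates 2 and 3, with 17 of 32 negative. This comparison shares the sham saline libraries with that of tianeptine in sham, so both medians rest on the same replicates. Endothelial genes had a median of -0.38, medium spiny neuron genes of -0.38 and fibroblast and meninges genes of -1.46. The part of these cells in the microglial values was not tested here either.

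On tianeptine the median of SNI over sham was 0.03, with 23 of 32 positive. No member and no gene passed (0.0%), and 0 members had an unadjusted p under 0.05, against 1.21% of all genes. The calls of DESeq2 and limma-voom were 0 members and 14 and 0 genes. The smallest p was that of the tetraspanin Cd53, with a log2 fold change of 0.21 ± 0.10.

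On desipramine 2682 genes passed (11.3%) but none of the 32 members, and 2 members had an unadjusted p under 0.05, against 27.6% of all genes. The median was -0.01, with 17 of 32 negative, and -0.06 with 23 of 32 negative without SNI desipramine replicates 2 and 3. DESeq2 and limma-voom called 0 members and 3347 and 2343 genes. Ctss had 54.2, 70.7, 62.4 and 51.4 CPM in SNI desipramine, against 42.8, 51.4, 42.0 and 55.1 CPM in sham desipramine, a log2 fold change of 0.32 ± 0.12 (adjusted p = 0.0880, edgeR). Its high values were replicates 2 and 3. Fcrls had 25.4, 21.2, 20.1 and 25.1 CPM in SNI desipramine, against 25.4, 28.6, 26.1 and 27.0 CPM in sham desipramine. The groups were apart by less than 0.1 CPM, as in the lower direction 4.47% of all genes were, and the difference was -0.22 ± 0.09. Without SNI desipramine replicate 4, 3 members passed: Ctss at 0.37, Fcrls at -0.29 and Mertk at -0.35. Without replicate 2 no gene of the table passed. Averaged over treatments, 437 genes passed (1.84%) and 0 members. With any 1 of 14 of the 30 libraries left out, 0 genes passed. There was 1 member, Irf8 at -0.18 ± 0.08, at an unadjusted p under 0.05, against 22.6% of all genes. The calls of DESeq2 and limma-voom were 0 members and 1601 and 0 genes, and the median was -0.03, or -0.01 without sham saline replicates 2 and 3 and -0.03 without SNI desipramine replicates 2 and 3.

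Other lists of microglial genes, chosen with earlier results of these data known, were read beside the members. Of 21 genes that microglia raise in disease models, 20 were tested, and none passed in any comparison. Their levels ran from 0.240 CPM for the integrin Itgax and 0.298 CPM for the lectin receptor Clec7a to 1029 CPM for the lipid carrier Apoe, which astrocytes make. Spp1, the secreted protein osteopontin, had 4.67 CPM on average. It differed by -1.14 ± 0.55 for tianeptine in sham and by -1.39 ± 0.57 for SNI on saline. Both differences of Spp1 rest on the same 5 sham saline libraries, so they are not separate results. The score of the disease-model list ran from -0.28 to 0.63 in that group. Values of Spp1 without the sham saline libraries that stand apart are not given here. Of 20 genes of inflammatory signalling, 12 were tested, and none passed in any comparison. The cytokines and chemokines Il1b, Tnf, Il6, Ccl2, Ccl3, Ccl4 and Cxcl10 were too low to test, with 257, 73, 63, 56, 203, 69 and 90 counts over all 30 libraries. The inducible nitric oxide synthase Nos2 had log2 fold changes in SNI of 0.73 ± 0.21 for tianeptine and 0.79 ± 0.24 for desipramine over saline, and -0.61 ± 0.22 for SNI over sham on saline. All 3 values of Nos2 rest on the same 5 SNI saline libraries, and none passed. In both drug comparisons it had the highest value of the 12 tested genes. Its mean level was 0.714 CPM.

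Of 19 genes that control microglia, 18 were tested, and 4 fell in SNI over sham on desipramine, where 11.3% of all genes passed. Among them Il34, a neuronal ligand of CSF1R, fell by 0.62 on the log2 scale (adjusted p = 0.00948, edgeR), Sirpa, a receptor that restrains uptake, by 0.35, and Cx3cl1, the neuronal ligand of CX3CR1, by 0.57. Il34, Sirpa and Cx3cl1 are also expressed by neurons, and genes of medium spiny neurons had a median of -0.58 in that comparison. Their part in it was not tested, and without SNI desipramine replicate 2 none of these calls remained. In all other comparisons no gene of the list passed. The myeloid master factor Spi1, which encodes PU.1, differed by -0.23 ± 0.12 for tianeptine over saline in sham, and Tgfbr2, a receptor for the signal that keeps microglia resting, by -0.38 ± 0.15. Tgfb1, a ligand of that receptor, differed by -0.32 ± 0.13, and Cd200, a neuronal signal that restrains microglia, by 0.31 ± 0.14. In that comparison 14 of the 18 were negative and 4 positive, with a median of -0.14. At an unadjusted p under 0.05 were 3 lower and 1 higher gene, against 6.84% of all genes. Of 19 further microglial genes tested, 14 were negative for tianeptine in sham with a median of -0.17. Of the 19, the lysosomal protease Lgmn alone passed in SNI over sham on desipramine, where it rose by 0.40 ± 0.12 (adjusted p = 0.0267, edgeR). In that comparison 11.3% of all genes passed, and without SNI desipramine replicate 2 the call of Lgmn was gone too.

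The 2 library sets differed over the whole table, and the members followed it. In the second set over the first, 9 of 32 passed (28.1%), against 32.3% of all genes. Among the activation genes, C1qa at -0.31 ± 0.08, C1qb at -0.28 ± 0.08, C1qc at -0.26 ± 0.08, Tyrobp at -0.29 ± 0.09 and Ctss at -0.23 ± 0.08 fell. Gpr34 rose by 0.52 ± 0.11, Cd53 by 0.35 ± 0.08, Cd33 by 0.35 ± 0.07 and P2ry12 by 0.15 ± 0.06. The library set is thus part of the model for all comparisons, and within the first set alone no member passed in any of them.

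How the genes varied among mice of a group was read from residuals of log2 CPM after group and library set means were removed, over the 30 libraries. The median r over 496 pairs was 0.50, from -0.33 to 0.96, and 0.74 among the activation genes, 0.46 among the pan-myeloid and 0.41 among the homeostatic genes. All genes of a library share its punch, depth and scaling, so these r values are descriptions. Of 10 pairs picked for a known partnership or shared locus, the C1q chains came highest. The permutation p asks only if the r of a pair differs from 0. As the median over all pairs was 0.50, a small p does not set a pair apart from other members. C1qa and C1qb gave r = 0.96 and rho = 0.94, C1qa and C1qc r = 0.96 and rho = 0.94, and C1qb and C1qc r = 0.93 and rho = 0.92 (permutation p = 1e-05 each, the smallest that 100000 resamples give, and 2.5e-05 adjusted over the 10 pairs). Without the 2 libraries farthest from the median of the first gene they were 0.93, 0.94 and 0.89. Trem2 and Tyrobp gave r = 0.88 and rho = 0.77 (permutation p = 1e-05 each, adjusted 2.5e-05), and r = 0.74 without the 2 farthest libraries. Fcer1g gave r = 0.63 and rho = 0.59 with Fcgr3 (permutation p = 0.00023 and 0.00079, adjusted 0.00038 and 0.0013) and r = 0.52 and rho = 0.47 with Fcgr1 (permutation p = 0.0031 and 0.01, adjusted 0.0031 and 0.01). Without the farthest libraries these were 0.56 and 0.43. Both pairs of Fcer1g lay below the median r of 0.74 among the activation genes. Tmem119 and Selplg, 18 kb apart on chromosome 5, gave r = 0.63 and rho = 0.47 (permutation p = 0.00016 and 0.0089, adjusted 0.00032 and 0.0098), and r = 0.48 without the farthest libraries. Within the first set alone the r of these pairs were 0.96, 0.96, 0.93, 0.89, 0.63, 0.49 and 0.69 in the order given.

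P2ry12 and P2ry13 gave r = 0.57 and rho = 0.53 (permutation p = 0.0012 and 0.0027, adjusted 0.0013 and 0.0039), and r = 0.48 without the 2 farthest libraries. The median r of all 496 pairs was 0.50. P2ry12 stood closer to its host gene Med12l, with r = 0.83 and rho = 0.77, than to any member, and Med12l had r = -0.12 with the members' score. Against the score of the other members, Csf1r stood closest with r = 0.91, then C1qc with 0.87 and C1qa with 0.86. The lowest were Mertk with -0.02, Gpr34 with 0.01, P2ry12 with 0.20, Cd68 with 0.31 and Fcrls with 0.38. Cx3cr1 had 0.73 as deposited and 0.85 with the nested genes and Wdr48 taken away. P2ry12 and Gpr34 each lie inside another gene. P2ry12 and Gpr34 gave r = 0.58 and rho = 0.48 with each other (permutation p = 0.00087 and 0.0079, adjusted 0.0011 and 0.0098), and P2ry13 and Gpr34 r = 0.59 and rho = 0.68 (permutation p = 0.00077 and 5e-05, adjusted 0.0011 and 0.0001). Both r values were 0.48 without the 2 farthest libraries.

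**Figure D5:**
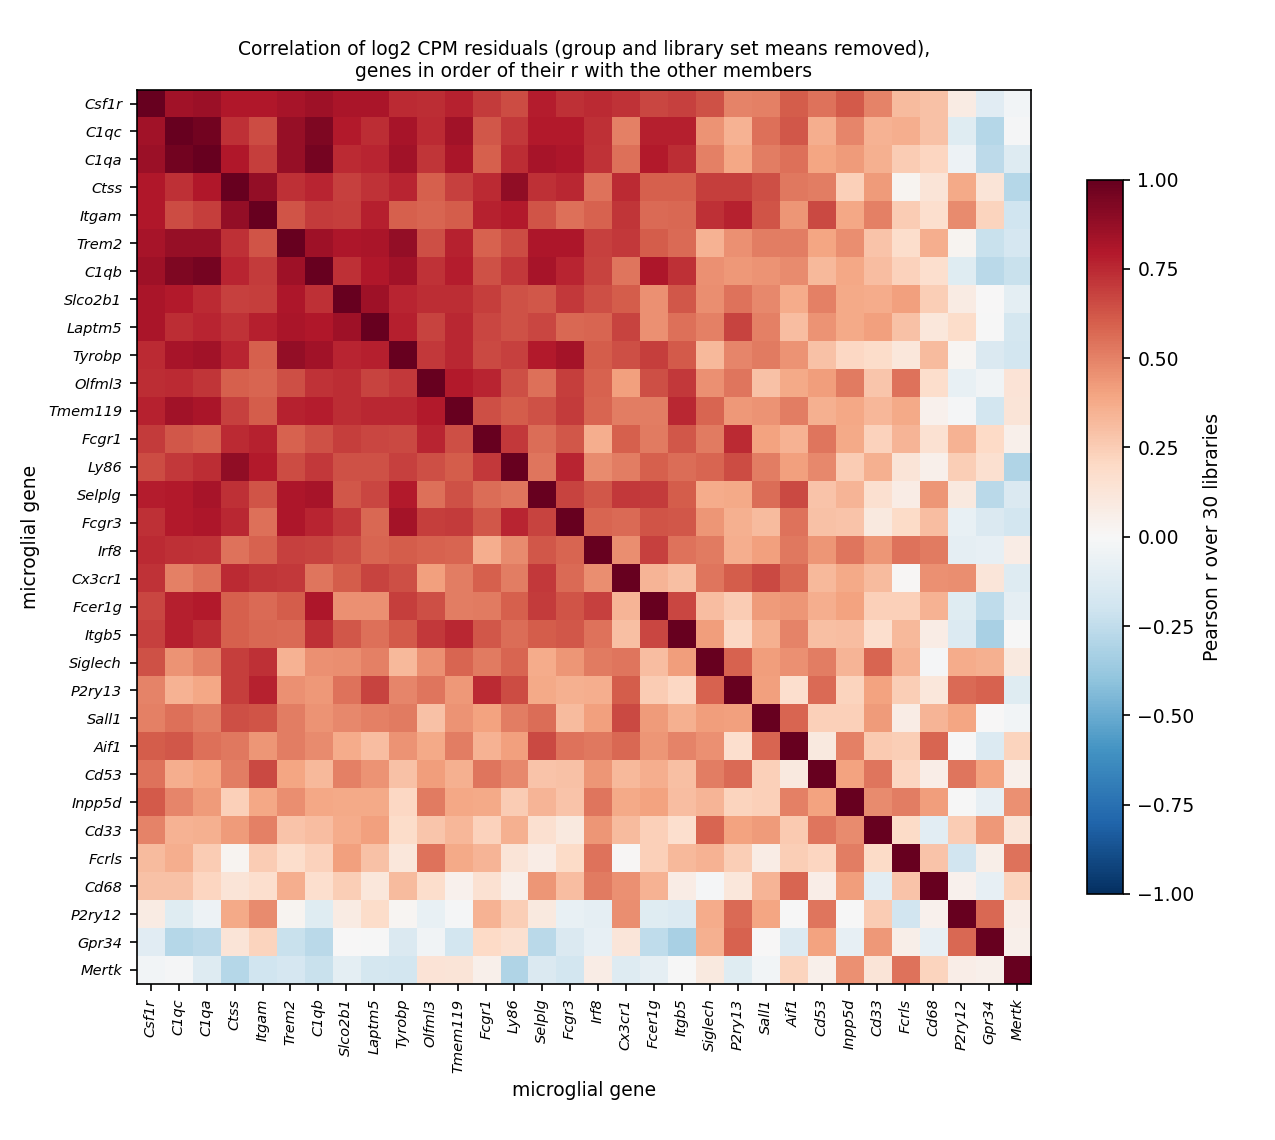
Pearson r between each pair of the 32 genes over 30 libraries, from log2 CPM residuals after group and library set means were removed, in the order of each gene's r with the rest. The block at the upper left holds Csf1r, the C1q genes, Trem2 and Ctss, and Mertk, Gpr34 and P2ry12 at the lower right stand apart.

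Genes outside the list that followed the members' score most closely, among genes whose log2 CPM averaged 1 or more, were Pld4, a lysosomal nuclease, with r = 0.93, Arhgap45 with 0.87, Gm49368 and the integrin chain Itgb2 with 0.86 each, Cd300c2 with 0.85 and Unc93b1, a chaperone of endosomal Toll-like receptors, with 0.84. Then came Fgd2 with 0.82, Lag3 and Gm15635 with 0.81 each and Adgre1, which encodes F4/80, with 0.80. Gm49368 shares its reads with Itgam and Gm15635 lies inside Slco2b1, so both share reads with a member. For tianeptine in sham the log2 fold change of the 10 ran from -0.32 to -0.16. Of the other lists, the score of the 19 further microglial genes tested had r = 0.86 with the members' score. That of the 20 tested disease-model genes had 0.72. The score of the endothelial list had r = 0.65 with the members' score, that of 5 tested genes of blood immune cells 0.70, of the astrocyte list 0.14, of the oligodendrocyte list 0.48 and of the border macrophage list 0.40.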

How the data were processed

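Per the labels' protocols, RNA was taken with TRIzol and made into libraries with a stranded mRNA kit. Per the submitters' processing notes, Trim Galore, HISAT2, SAMtools and featureCounts were used with build mm10, with no versions. The deposited table holds raw counts per Ensembl gene ID in 30 libraries. The deposited FPKM values served only to find the gene length the authors used, which was the whole span. Of the 55401 IDs, 54349 matched GENCODE M21 exactly, 792 without the version and 260 not at all.

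Counts were fitted with edgeR 4.0.16 in R 4.3.3 (filterByExpr, TMM, robust quasi-likelihood fit), with 1 coefficient per group and 1 for library set, over all 30 libraries. The filter kept 23736 genes with 99.925% of the counts. The fit had 23 residual degrees of freedom and a biological coefficient of variation of 17.5%. Library sets come from the numbering in the sample descriptions. CPM use TMM-scaled library sizes, and log2 CPM a prior count of 2. DESeq2 1.42.0, limma 3.58.1 and the other alternatives are given in the closing section. The steps were tested on simulated data.

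The 32 genes and all lists were chosen with earlier results of these data known. All members may be named, and those with full statistics are up to 8 of smallest p in a comparison plus 13 fixed markers. Of other lists, genes of disease-associated, inflammatory and regulator lists may all be named, and of the rest the first 3 and up to 4 of smallest p. No pair of libraries agreed within counting noise (smallest chi-square per degree of freedom 6.894). Libraries are separate animals, so p-values measure the spread between mice. Some genes of these lists are not reported here by name.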

Additional observations from a re-analysis of the deposited data

Results flagged for a closer look

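In 192 sets of 1 gene in 1 group of 4 to 6 libraries, 10 held a library that stood far from the others of its group by Dixon's test, where chance alone gives about 1 in 20, and of 24 sets of a score in a group 0 did. Sham saline replicate 2 was highest in 2 of the 10. It had 16.6 CPM of Cd68, against 11.4 to 12.9 CPM in the other sham saline libraries, and 39.8 CPM of Selplg, against 26.6 to 30.3 CPM. SNI saline replicate 5, a library of the second set, was highest for Cd33 with 15.3 CPM, against 10 to 11.2 CPM, and for Cd53 with 6.62 CPM, against 4.25 to 4.86 CPM. Both genes were also higher in the second library set over all groups.

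Sall1 had 33.2 CPM in SNI saline replicate 3, against 26.8 to 27.9 CPM in the rest of that group. Laptm5 had 32 CPM in SNI tianeptine replicate 1, against 28.8 to 29.5 CPM. Irf8 had 4.72 CPM in sham tianeptine replicate 6, the library with choroid plexus genes, against 2.84 to 3.44 CPM. Slco2b1 had 22.3 CPM in sham desipramine replicate 2, against 18.6 to 18.8 CPM. Lowest in their groups were Cd53 in sham desipramine replicate 3, with 4.05 CPM against 5.24 to 5.48 CPM, and Cx3cr1 in SNI desipramine replicate 2, with 118.3 CPM against 121.5 to 122.1 CPM.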

How the results depend on the processing

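The counts hold introns and reads of overlapping genes, sham saline replicates 2 and 3 stand high in activation genes, and the second library set holds no desipramine. The lowest counts, 64 for Gpr34, 65 for Fcgr1 and 80 for Irf8, limit those genes. The alternatives were another filter, DESeq2 size factors, DESeq2, limma-voom, no set term, the first set alone, only the groups compared, a replicate block, each library left out in turn and, added after the data were seen, the libraries that stand apart and the overlapping genes. Whether a median moved was judged against the spread of the score between replicates, 0.11 on the log2 scale, which is as large as most of these medians, so staying within it says little. Over the alternatives the median took the other sign 1 time for tianeptine in SNI (0.01 in the first set alone), 1 for desipramine in sham, 1 for its interaction and 2 for SNI on desipramine; for desipramine averaged it was 0.00. In 4 medians and 6 counts of passing members the change was larger. The medians were those of the tianeptine interaction in the first set alone (0.27), of desipramine in sham without sham saline replicates 2 and 3 (0.07), and of the desipramine interaction without sham saline replicate 2 (0.01) and without both (-0.04). The others were counts of passing members: 1 for desipramine in SNI and 3 for SNI on desipramine, both without SNI desipramine replicate 4, and 1 (Fcrls) for tianeptine over desipramine without the set term, with DESeq2, without SNI desipramine replicate 3 or without SNI tianeptine replicate 4. The cause was not tested. No other alternative gave a passing member.

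With each library left out in turn, the median ran from -0.26 to -0.14 for tianeptine in sham, from -0.10 to -0.01 in SNI, from -0.15 to -0.09 averaged, and from 0.07 to 0.15 for its interaction. For desipramine it ran from -0.09 to 0.00 in sham, from 0.01 to 0.07 in SNI, from -0.03 to 0.02 averaged, and from 0.01 to 0.16 for the interaction. For tianeptine over desipramine it ran from -0.15 to -0.10. For SNI over sham it ran from -0.14 to -0.02 on saline, from 0.01 to 0.07 on tianeptine, from -0.06 to 0.02 on desipramine and from -0.05 to -0.01 averaged. Passing members ran from 0 to 1 for desipramine in SNI and for tianeptine over desipramine, from 0 to 3 for SNI on desipramine, and were 0 in the rest.

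For single genes, 55 results were followed: the 4 members of smallest p in each comparison, and Cx3cr1 for tianeptine over saline in sham, in SNI and averaged. Of 1344 values, 1315 kept direction and call, 8 newly passed and 21 changed sign. As no member passed in the main fit, keeping the call meant not passing, and genes of smallest p change sign less easily. Over all 32 members, desipramine in sham had 21 negative in the main fit and 8 without sham saline replicates 2 and 3. Of Cx3cr1, whose change is near 0, the value for tianeptine in sham was between 0.00 and 0.01 without sham tianeptine replicate 3 or sham saline replicate 2. In SNI it was -0.01 without SNI saline replicate 4 or less nested genes and Wdr48. With each library left out it ran up to 0.04 in SNI. Averaged, it was 0.00 to -0.01 in 11 settings, -0.03 less nested genes and -0.13 less Wdr48 too. Without sham saline replicates 2 and 3, desipramine in sham gave 0.01 for C1qb, 0.03 for Tyrobp and 0.06 for C1qa. Without SNI desipramine replicates 2 and 3, SNI on desipramine gave 0.00 for Mertk.

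The labels' replicate numbers did not pair the mice: the median r between libraries of the same number was -0.01 over 60 pairs, against 0.01 over 180 pairs of other numbers. With the replicate block the medians were -0.21 for tianeptine in sham, -0.05 in SNI, -0.13 averaged and 0.10 for its interaction, and no member passed in any comparison. Genes passing over the whole table with the block were 4 for desipramine averaged, 61 for tianeptine over desipramine, 2378 for SNI on desipramine and 0 for SNI averaged, against 7, 104, 2682 and 437 without it. DESeq2 called more genes than edgeR: 22 against 0 for desipramine in sham, 555 against 0 in SNI, 132 against 7 averaged, 100 against 0 for its interaction, 422 against 104 for tianeptine over desipramine, 14 against 0 for SNI on tianeptine and 1601 against 437 for SNI averaged, where limma-voom called 0. The largest counts over libraries left out were 3352 genes for desipramine in SNI, 957 for its interaction, 360 averaged, 827 for tianeptine over desipramine, 5903 for SNI on desipramine and 3756 for SNI averaged, all without SNI desipramine replicate 4. The lowest were 0 for SNI on desipramine without SNI desipramine replicate 2, 0 for SNI averaged with any of 14 libraries left out, 2 for desipramine averaged and 47 for tianeptine over desipramine.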
